A study of Mus musculus with 16 samples.

Results

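The cornified envelope genes of mouse ear skin were compared between animals given antibody to the cytokine oncostatin M (anti-OSM) and animals given antibody to Ly6G (anti-Ly6G), a surface protein of neutrophils. The members were the genes whose symbols begin with Lce or Sprr and a digit, together with Lor, Ivl, Flg, Flg2, Hrnr, Rptn, Crnn, Lelp1, Crct1 and Kprp, with at least 30 reads summed over the 6 libraries. Of 47 genes with these names among 45777 in the table, 45 met the minimum. Sprr3 had no read in any library and Lelp1 had 3 reads, all in 1 anti-Ly6G library. The nearest members inside the minimum were Sprr2k with 195 reads, Sprr2j-ps with 233, Crnn with 658 and Lce3a with 747. All 45 passed the filter on low counts and were tested.

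Polyadenylated RNA of ear skin was sequenced from wild-type C57BL/6 mice. Both antibody groups, 3 libraries each, received MC903 (calcipotriol, which acts on the vitamin D receptor and brings about atopic dermatitis-like inflammation) on both ears, at 50 µM in 20 µL of ethanol, daily for 10 days. The series' design text also names ovalbumin, which the protocol of the antibody groups does not. Anti-OSM, given to neutralise the cytokine, was injected into the skin at 20 µg per mouse every other day. Anti-Ly6G, given to deplete neutrophils, went into the peritoneum in doses of 200 µg for each mouse, the first of them 2 days ahead of MC903 and the others 1 and 4 days after it. Antibody, dose, route and schedule therefore differed together, no isotype antibody is named, and the labels give neither the age nor the sex of the mice. Of the 16 libraries labelled, the 5 control and 5 MC903 libraries were not analysed here, so a difference below does not show which antibody group departed from MC903 alone.

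The cornified envelope is the protein shell that replaces the plasma membrane of keratinocytes in the outermost epidermis. Involucrin (Ivl) and the envoplakin and periplakin scaffold line the membrane first, and loricrin (Lor), small proline-rich proteins (Sprr) and late cornified envelope proteins (Lce) are then joined to them by transglutaminases. Filaggrin (Flg) and its relatives carry an S100-type calcium-binding region fused to long repeats. Filaggrin itself bundles keratin filaments and is broken down into the small hygroscopic molecules of the stratum corneum. These genes lie side by side in the epidermal differentiation complex, and loss-of-function alleles of human FLG are a known risk for atopic dermatitis. Many Sprr genes and the Lce3 group are known for high levels in wounded and inflamed epidermis, whereas the Lce1 group belongs to undisturbed late differentiation.

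Total counts were 52163179 to 64122588 per library, of which the members took 1.07% to 1.57%. Keratinocyte RNA was plentiful in every library: the 6 suprabasal keratin genes summed to 17563 to 19189.6 TPM with anti-OSM against 14676 to 24447 with anti-Ly6G, and the 7 basal keratinocyte genes to 9863 to 12103 TPM with anti-OSM against 15172 to 15366 with anti-Ly6G. TPM is the authors' value per transcript length, and CPM is the read count scaled by edgeR to library size. Other tissues of the ear differed between the groups as well. Markers were lower with anti-OSM for 6 of 7 skeletal muscle genes (summed level 3367 to 4061 TPM with anti-OSM against 4935 to 5637 with anti-Ly6G) and 5 of 6 cartilage genes (125 to 135 TPM with anti-OSM against 168 to 193 with anti-Ly6G). They were higher for 4 of 8 fibroblast genes (5601 to 6164 TPM with anti-OSM against 3523 to 4833 with anti-Ly6G) and 7 of 10 immune cell genes (894 to 999 TPM with anti-OSM against 507 to 686 with anti-Ly6G). These counts use an adjusted p under 0.05 in edgeR, at which 6.27% of all genes tested were lower and 5.81% higher. Of 5 adipocyte and 4 endothelial genes, 0 passed in edgeR, in DESeq2 or in limma-voom, and 0 had an unadjusted edgeR p under 0.05. No listed marker was at 0 in every library. In whole skin, fewer keratinocytes and less RNA per keratinocyte cannot be told apart, and the part of tissue makeup in the results below was not tested.

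The members that passed the test lay in both directions. Relative to anti-Ly6G, anti-OSM skin had less Rptn, Sprr1a, Sprr1b, Sprr2h, Lce3c, Lce3e and Lce3f RNA and more Ivl RNA. In edgeR's quasi-likelihood test with Benjamini-Hochberg adjustment over all genes (threshold 0.05), 1 member was higher, 7 were lower and 37 did not pass. That is 17.8% of the members, where 12.1% of the 19915 genes tested were called (5.81% higher and 6.27% lower). The 7 lower members are 15.6% of the 45. The median log2 fold change was -0.14 over the members and 0.01 over all genes tested. Levels did not overlap between the groups for 17 members, 6 higher and 11 lower (37.8%, beside 35.0% of all genes tested). An unadjusted p under 0.05 was reached by 7 members upward and 11 downward, and by 29.0% of all genes tested (14.7% higher and 14.4% lower). All 15 Sprr members and all 6 Lce3 members had a negative fold change, and all 15 members of the Lce1 group, counted here with Lce6a, a positive one. These signs held under each scaling and tool, and those of Sprr4, Sprr2b, Lce3a and Lce1e changed when 1 library was left out. Sprr1a alone passed in all 15 alternative fits, which changed the scaling, the filter, the tool or 1 library.

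The share of all genes called also moved with the setting, and counts of members in a setting are to be read against it. When anti-OSM replicate 1 was left out, 3.49% of the genes were called (1.43% higher, 2.06% lower). Dropping anti-OSM replicate 2 gave 4.79% (2.26% higher, 2.52% lower), and dropping anti-OSM replicate 3 gave 3.45% (1.18% higher, 2.27% lower). Of the anti-Ly6G libraries, omitting replicate 1 gave 5.30% (2.26% higher, 3.04% lower), omitting replicate 2 6.50% (2.86% higher, 3.64% lower) and omitting replicate 3 14.8% (7.62% higher, 7.14% lower). DESeq2 called 19.3% of the genes (9.41% higher, 9.92% lower), limma-voom 11.4% (5.63% higher, 5.78% lower) and edgeR with no filter on low counts 7.23% (3.23% higher, 4.00% lower). Scaling each library to its suprabasal keratin counts left 2.34% (0.919% higher, 1.42% lower).

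**Figure D1:**
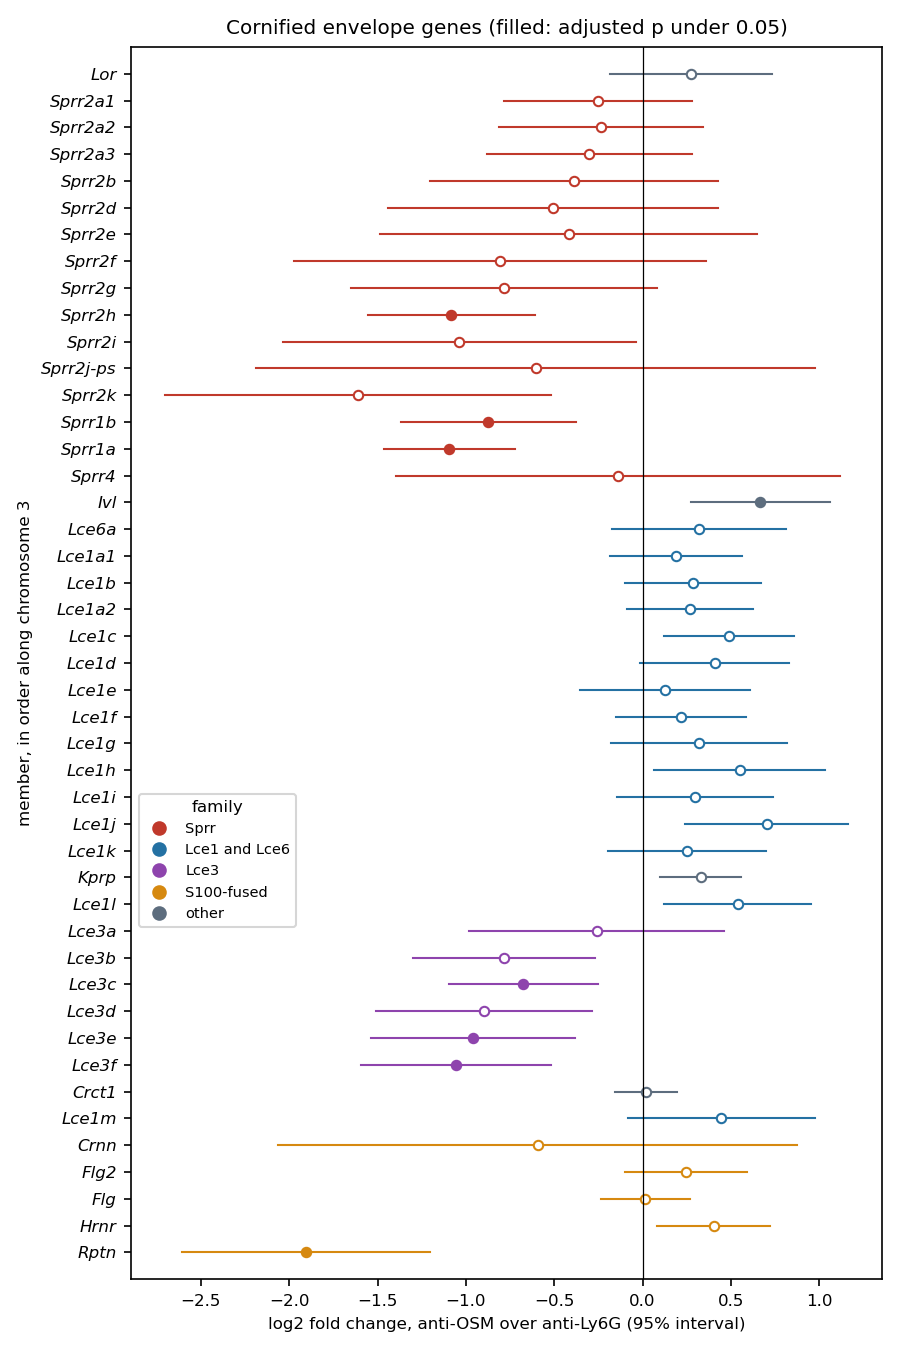
Log2 fold change of anti-OSM over anti-Ly6G with its 95% interval (x axis) for the 45 members in their order along chromosome 3 (y axis), coloured by family, with filled circles for an adjusted p under 0.05. The 15 Sprr members and the 6 Lce3 members lie left of 0 and the 15 members of the Lce1 group right of 0, with most intervals of the Lce1 group reaching 0.

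The bases before the transcription start are shown for 6 of the 8 members that passed. AP-1, the FOS and JUN family of factors, is a known regulator of involucrin and Sprr genes, and its site was searched as TGANTCA on both strands of the 250 bases upstream of each RefSeq start (GRCm38.p6), N standing for any base. Capitals mark the matches, which describe letters and not bound sites. Rptn (chr3:93393449-93393698, plus strand), Sprr1a (chr3:92485882-92486131, minus strand), Sprr1b (chr3:92438780-92439029, minus strand), Sprr2h (chr3:92385435-92385684, plus strand), Ivl (chr3:92573736-92573985, minus strand) and Lce3f (chr3:92991967-92992216, plus strand) read as follows, 5′ to 3′ toward the start.
Rptn: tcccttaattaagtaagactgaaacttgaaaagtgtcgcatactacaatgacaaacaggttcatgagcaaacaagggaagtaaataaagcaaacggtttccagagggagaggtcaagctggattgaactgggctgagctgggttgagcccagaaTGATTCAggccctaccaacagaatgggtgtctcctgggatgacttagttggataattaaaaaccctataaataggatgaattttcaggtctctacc
Sprr1a: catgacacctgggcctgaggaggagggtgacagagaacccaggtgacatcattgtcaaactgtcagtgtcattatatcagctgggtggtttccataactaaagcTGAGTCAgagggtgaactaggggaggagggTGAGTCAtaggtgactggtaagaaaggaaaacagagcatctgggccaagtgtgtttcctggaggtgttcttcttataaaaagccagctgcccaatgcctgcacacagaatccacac
Sprr1b: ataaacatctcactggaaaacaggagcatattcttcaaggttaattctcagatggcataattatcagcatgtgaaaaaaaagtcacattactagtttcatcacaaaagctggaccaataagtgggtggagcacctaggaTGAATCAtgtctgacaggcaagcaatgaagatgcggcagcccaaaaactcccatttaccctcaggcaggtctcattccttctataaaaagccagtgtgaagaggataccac
Sprr2h: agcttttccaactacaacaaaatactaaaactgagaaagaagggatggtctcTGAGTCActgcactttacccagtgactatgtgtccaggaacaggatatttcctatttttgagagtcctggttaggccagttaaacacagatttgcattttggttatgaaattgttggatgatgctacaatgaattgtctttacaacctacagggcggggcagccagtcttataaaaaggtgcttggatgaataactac
Ivl: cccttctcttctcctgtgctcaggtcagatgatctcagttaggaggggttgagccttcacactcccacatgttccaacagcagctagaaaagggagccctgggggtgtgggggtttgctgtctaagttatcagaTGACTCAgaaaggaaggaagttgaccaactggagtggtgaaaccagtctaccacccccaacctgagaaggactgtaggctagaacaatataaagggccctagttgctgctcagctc
Lce3f: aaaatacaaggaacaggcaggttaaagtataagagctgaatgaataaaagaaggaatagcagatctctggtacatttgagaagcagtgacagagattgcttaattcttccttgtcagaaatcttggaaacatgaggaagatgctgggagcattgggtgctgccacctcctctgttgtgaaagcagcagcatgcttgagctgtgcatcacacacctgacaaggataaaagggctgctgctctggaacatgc

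RefSeq gave such a window for 40 of the 45 members. TGANTCA was found in 15 of the 40 (37.5%), against 6.75% of 32851 promoters of the same length. It was in 9 of 13 Sprr windows (69.2%), in 4 of 5 windows of the S100-fused genes and in those of both Lor and Ivl. Among Sprr genes it began 193 to 198 bases before the start in each of Sprr2b, Sprr2d, Sprr2e, Sprr2f, Sprr2h, Sprr2i and Sprr2k, and Sprr2k held it again 182 bases before. Compared position by position without gaps, pairs of these Sprr2 windows were 27.6% (Sprr2f and Sprr2k) to 88% (Sprr2d and Sprr2e) identical. Such a value drops when 1 window is shifted, so a low value does not show unrelated sequence. The Sprr2a1 and Sprr2a3 windows, which hold largely the same letters shifted, scored 26.4%. Related genes are counted separately here, so the shares of members are not shares of independent promoters. In Sprr1a it began 146 and 116 bases before the start, in Ivl 116, in Sprr1b 111 and in Rptn 96. None of the 14 Lce1-group windows and none of the 6 Lce3 windows held it, nor did those of Sprr2a1, Sprr2a2, Sprr2a3, Sprr4 and Hrnr. The letters stood before Rptn, Sprr1a, Sprr1b and Sprr2h, which were lower with anti-OSM, and before Ivl, which was higher. They also stood before Flg and Lor, which did not pass, and were missing before Lce3f, which was lower. Whether AP-1 binds these sites or has a part in the differences was not tested. TATAAA was in 19 of the 40 windows (47.5%, all promoters 12.4%). TTCNNNGAA, the form that STAT factors bind, was in 2 of 40 (5%, all promoters 7.02%), those of Sprr2a3 and Lce1l. The Sprr2a3 window holds the letters of the Sprr2a1 and Sprr2a2 windows shifted by its annotated start. Its match lies in bases that those windows do not cover, so it does not set the copies apart. AACCGGTT, a form bound by grainyhead-like factors, was in 0 of 40 (all promoters 0.116%). No TGANTCA match overlapped a match of these other motifs.

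Sprr proteins are short crosslinking partners that are swapped into the envelope under stress. In the Sprr family 3 of 15 members were lower, 0 were higher and 12 did not pass, with a median log2 fold change of -0.61. The lower members are 20% of the family, where 6.27% of all genes tested were lower. For 5 members the unadjusted p was under 0.05, all lower, where 14.4% of all genes were lower at that p. Levels did not overlap between the groups for 6 of the 15 Sprr genes (40%), where 17.3% of all genes tested had non-overlapping lower levels. Sprr1a (gene ID 20753, chromosome 3) was measured at 175, 220.2 and 261 CPM with anti-OSM against 525, 390.1 and 486 with anti-Ly6G. The highest anti-OSM library lay below the lowest anti-Ly6G library, and the difference was -1.09 (SE 0.16, adjusted p = 0.00901) on the log2 scale, or 2.13-fold lower. Sprr1b, the neighbouring member on the chromosome, was at 143, 143 and 232 CPM with anti-OSM against 366, 270.0 and 314 with anti-Ly6G. These levels did not overlap either, and the log2 fold change was -0.87 (SE 0.21, adjusted p = 0.0408). That call held without anti-OSM replicate 3 and was lost without any other library (adjusted p 0.0721 to 0.120) and with no filter on low counts (0.0694).

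Sprr2h was the one Sprr2 gene that passed the test. Its levels were 41.6, 52.03 and 67.6 CPM with anti-OSM against 139, 98.5 and 104 with anti-Ly6G, again with no overlap, and differed by -1.08 (SE 0.20, adjusted p = 0.0198) on the log2 scale. Without anti-OSM replicate 2 its adjusted p was 0.0669. The other 8 Sprr2 genes outside Sprr2a had fold changes of -1.61 to -0.39 and adjusted p-values of 0.0639 to 0.602. Sprr2k had the most negative value of these, at 0.188, 0.186 and 0.420 CPM with anti-OSM against 1.30, 0.663 and 0.481 with anti-Ly6G, but was the least abundant member. It passed in DESeq2 (adjusted p = 0.0208). Sprr2i, at 2.00, 6.73 and 6.96 CPM with anti-OSM against 11.9, 9.33 and 11.04 with anti-Ly6G, had a log2 difference of -1.04 (95% interval -2.03 to -0.04, adjusted p = 0.159), with no overlap between the groups. Sprr2f did not overlap either, at 1.71, 6.02 and 8.01 CPM with anti-OSM against 8.48, 8.19 and 10.9 with anti-Ly6G, and the log2 difference was -0.81 (95% interval -1.97 to 0.36, adjusted p = 0.330). Sprr2d (-0.51), Sprr2e (-0.42), Sprr2g (-0.78), Sprr2b (-0.39) and the pseudogene Sprr2j-ps (-0.61) overlapped between the groups. Sprr4 had a log2 difference of -0.14 (95% interval -1.40 to 1.12, adjusted p = 0.890).

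The 3 most abundant Sprr genes did not pass the test. Sprr2a2, Sprr2a1 and Sprr2a3 had mean levels of 1655, 1567 and 1174 TPM over the 6 libraries, ahead of 904 for Sprr1a and 621 for Sprr1b. Sprr2a1 was at 1858, 2379.9 and 3103 CPM with anti-OSM against 3459.5, 2141 and 3136 with anti-Ly6G. Its groups overlapped, and the log2 difference was -0.25 (95% interval -0.78 to 0.28, adjusted p = 0.512). Sprr2a2 was at 1902, 2532 and 3369.6 CPM with anti-OSM against 3701, 2228 and 3254 with anti-Ly6G, with a log2 difference of -0.23 (95% interval -0.81 to 0.34, adjusted p = 0.577). For Sprr2a3, at 339.7, 410.4 and 547 CPM with anti-OSM against 655, 372 and 569.9 with anti-Ly6G, the log2 difference was -0.30 (95% interval -0.88 to 0.28, adjusted p = 0.466). The 3 genes are near-identical copies: of all 100-base stretches of their transcripts, 92.8% for Sprr2a2, 92.5% for Sprr2a1 and 36.2% for Sprr2a3 occur in another gene too, so how reads were divided among them is uncertain. With their counts summed into 1 gene, a setting chosen after seeing the data, the count of lower Sprr members remained 3. The summed Sprr level without Sprr2a was 1129.8, 1420.0 and 1874 TPM with anti-OSM against 3135, 2443 and 2935 with anti-Ly6G, with no overlap. The 3 Sprr2a copies summed to 3064, 3833 and 5019.7 TPM with anti-OSM against 5643, 3593 and 5231 with anti-Ly6G, which overlapped. The whole Sprr family, Sprr2a included, summed to 4194 to 6893 TPM with anti-OSM against 6036 to 8777 with anti-Ly6G, and overlapped too.

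The Sprr members spread widely among the anti-OSM libraries. Anti-OSM replicate 1 was the lowest of the 6 libraries for 13 of 15, and the median coefficient of variation (SD over mean of the CPM values) was 44.5% with anti-OSM against 23.6% with anti-Ly6G. The share of all genes lowest in that library was not counted. Without that library the median Sprr log2 fold change was -0.36 and 2 members were lower, while the share of all genes called lower fell from 6.27% to 2.06%. Without anti-OSM replicate 2, 1 member and 2.52% of all genes were lower. The keratins of wounded epidermis, Krt6a, Krt6b, Krt16 and Krt17, moved with them: 3 of 4 were lower, beside 6.27% of all genes tested. These keratins summed to 2287 to 4387 TPM with anti-OSM against 6494 to 9678 with anti-Ly6G. Krt6a was at 515, 767 and 967 CPM with anti-OSM against 2659, 1929 and 3132 with anti-Ly6G (log2 fold change -1.78, SE 0.26, adjusted p = 0.0111). Krt6b (log2 fold change -1.68, SE 0.32, adjusted p = 0.0237) and Krt17 (log2 fold change -1.18, SE 0.19, adjusted p = 0.0120) passed too. Krt16 overlapped between the groups and had a log2 difference of -0.86 (adjusted p = 0.0950). Scaling each library to its suprabasal keratin counts left 5 Sprr members lower, and 1.42% of all genes. The part of wound-keratin expression in the Sprr difference was not tested.

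**Figure D2:**
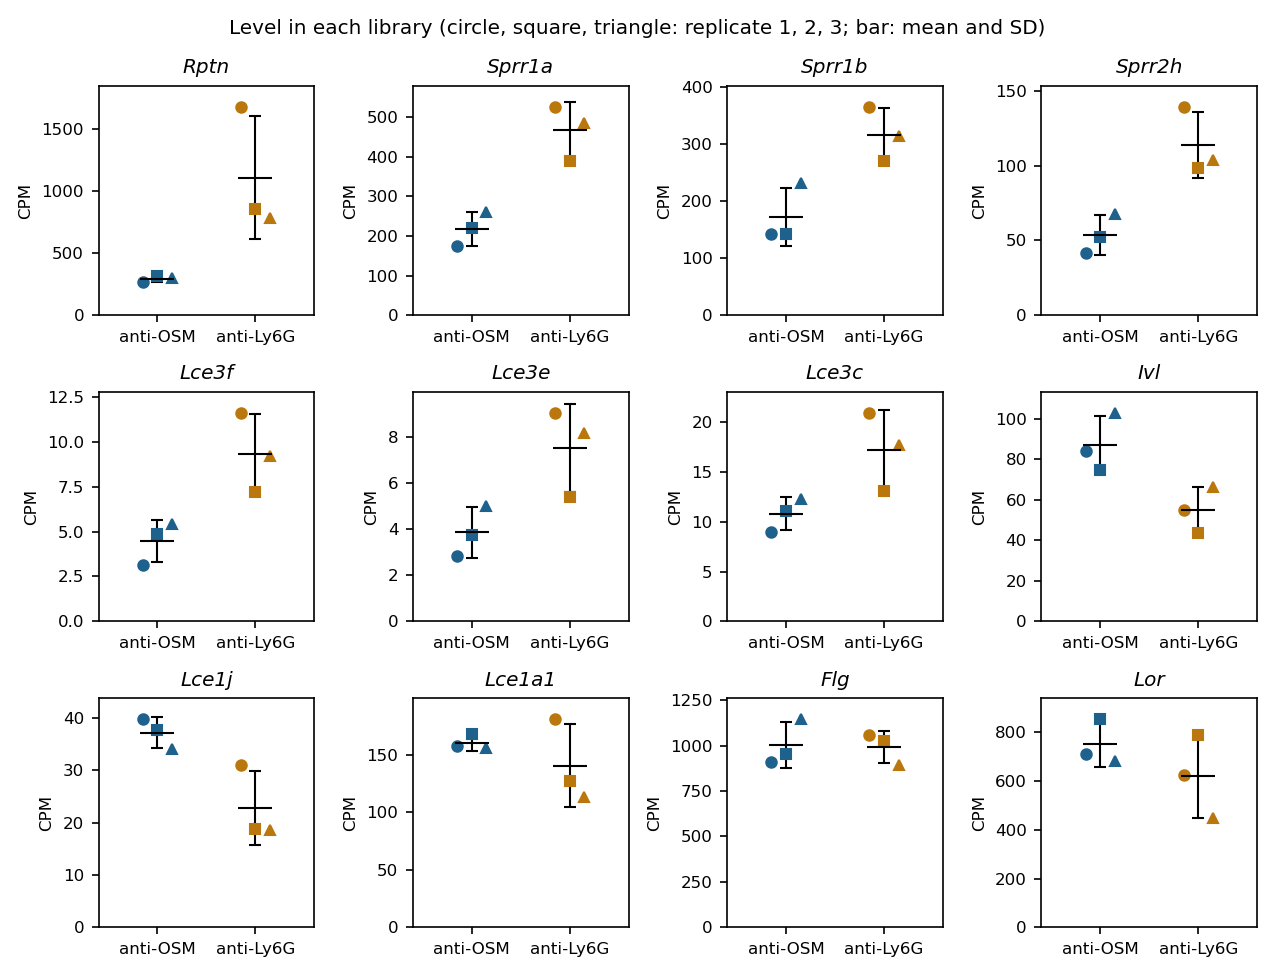
CPM in each library (y axis, from 0) for 12 members, anti-OSM at the left and anti-Ly6G at the right of each panel (x axis), with circles, squares and triangles for replicates 1, 2 and 3 and bars for the mean and SD of 3 libraries. Rptn, Sprr1a, Sprr1b, Sprr2h and the 3 Lce3 genes shown lie lower with anti-OSM without overlap, Ivl and Lce1j lie higher without overlap, and Lce1a1, Flg and Lor overlap.

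Among the late cornified envelope genes, 3 of 6 members of the Lce3 group passed the test and 0 of 15 of the Lce1 group did. Whether the subgroups differ was not tested. Lce proteins are small, cysteine- and glycine-rich envelope components, and those of the Lce3 group are induced when the barrier is damaged. In the Lce3 group 3 of 6 were lower, 0 were higher and 3 did not pass, with a median log2 fold change of -0.84 and non-overlapping levels for 4. Over all genes tested 6.27% were lower and 17.3% were lower without overlap. For 5 of the 6 the unadjusted p was under 0.05, all lower (14.4% of all genes). Lce3f was at 3.16, 4.89 and 5.41 CPM with anti-OSM against 11.6, 7.20 and 9.20 with anti-Ly6G. Its groups did not overlap, and the log2 fold change was -1.05 (SE 0.23, adjusted p = 0.0265). Lce3e was at 2.83, 3.75 and 5.03 CPM with anti-OSM against 9.06, 5.39 and 8.18 with anti-Ly6G, also without overlap (log2 fold change -0.96, SE 0.25, adjusted p = 0.0448). The levels of Lce3c were 9.01, 11.1 and 12.3 CPM with anti-OSM against 20.9, 13.1 and 17.7 with anti-Ly6G (log2 fold change -0.67, SE 0.18, adjusted p = 0.0498), with all anti-OSM libraries below all anti-Ly6G libraries. Lce3b (-0.79, adjusted p = 0.0580) and Lce3d (-0.90, adjusted p = 0.0684) did not pass here and passed in DESeq2 (adjusted p = 0.0152 and 0.00129). Lce3a, at 1.17, 1.91 and 2.61 CPM with anti-OSM against 2.05, 1.73 and 3.03 with anti-Ly6G, overlapped and had a log2 difference of -0.26 (95% interval -0.98 to 0.46, adjusted p = 0.631).

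Each of these calls depended on single libraries, and 0 of the 6 were lower without anti-OSM replicate 1, 2 or 3 or without anti-Ly6G replicate 1, where 2.06% to 3.04% of all genes were. Lce3f lost its call without any anti-OSM library or without anti-Ly6G replicate 1 (adjusted p 0.0541 to 0.0819). Lce3e and Lce3c kept theirs without anti-Ly6G replicate 2 and lost it without any other library (0.0512 to 0.135 and 0.0787 to 0.148). With no filter on low counts Lce3e had an adjusted p of 0.0506 and Lce3c of 0.0530. Lce3c also missed the threshold with upper-quartile scaling (0.0511), total counts (0.0506), limma-voom (0.0625) and scaling to suprabasal keratins (0.248). The copies are also alike: 43% of the 100-base stretches of Lce3f occur in another gene, 36.4% of Lce3e, 28.3% of Lce3d and 24.1% of Lce3c, so their separate counts are uncertain. Anti-OSM replicate 1 was the lowest library for 6 of 6 Lce3 genes, with the share over all genes not counted. Their summed level, 93.6, 121 and 148 TPM with anti-OSM against 253, 164 and 232 with anti-Ly6G, did not overlap.

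In the Lce1 group with Lce6a, no member passed and every fold change was positive. Of 15, 0 were higher in edgeR, while 4 had an unadjusted p under 0.05 (14.7% of all genes were higher at that p), 4 were called in DESeq2 (9.41% of all genes higher) and 1 in limma-voom (5.63%). The median log2 fold change was 0.32, and the adjusted p-values ran from 0.0605 to 0.723. Levels did not overlap for Lce1c, Lce1j and Lce1l (20%, beside 17.7% of all genes tested with non-overlapping higher levels). Lce1j had the smallest p of the group: it was at 39.8, 37.7 and 34.01 CPM with anti-OSM against 31.00, 18.8 and 18.6 with anti-Ly6G, and its fold change was 0.70 (SE 0.20, adjusted p = 0.0605) on the log2 scale. Lce1c (0.49, adjusted p = 0.0873), Lce1l (0.54, 0.0942) and Lce1h (0.55, 0.131) followed. The 3 most abundant Lce genes were Lce1a1, Lce1b and Lce1a2, at means of 441, 278 and 249 TPM. Lce1a1 was at 157, 168 and 156 CPM with anti-OSM against 181, 127 and 113 with anti-Ly6G, with overlapping groups, and the log2 value was 0.19 (95% interval -0.18 to 0.57, adjusted p = 0.480). Lce1b was at 99.9, 100.0 and 85.8 CPM with anti-OSM against 99.2, 73.3 and 61.6 with anti-Ly6G, and its log2 difference was 0.29 (95% interval -0.10 to 0.67, adjusted p = 0.299). For Lce1a2 the levels were 95.01, 98.8 and 87.3 CPM with anti-OSM against 97.7, 74.2 and 61.8 with anti-Ly6G (log2 fold change 0.27, 95% interval -0.09 to 0.62, adjusted p = 0.298). In these 3 genes anti-Ly6G replicates 2 and 3 lay below every anti-OSM library and anti-Ly6G replicate 1 did not.

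One library decided the count for the Lce1 group. For 14 of the 15 genes, anti-Ly6G replicates 2 and 3 lay below all 3 anti-OSM libraries, whereas anti-Ly6G replicate 1 lay at or above the lowest anti-OSM library for 12 and above all of them for 6. The median coefficient of variation was 6.27% with anti-OSM against 28.2% with anti-Ly6G. Without anti-Ly6G replicate 1, 14 Lce members were higher (all but Lce1m of the group), with a median log2 fold change of 0.57. In that fit 15 members were higher and 3 lower, beside 2.26% and 3.04% of all genes. Without anti-Ly6G replicate 3 the median was 0.17 and 0 were higher. The same replicate 1 was the highest of the 6 libraries for 9 of 15 Sprr and 4 of 6 Lce3 genes. Anti-Ly6G replicate 3 was the lowest library for 13 of 15 Lce1-group genes, and it also had the lowest Krt2 and Krt10, at 4640.1 and 6250.2 CPM. Krt1, of the same suprabasal keratin list, was instead lowest in anti-OSM replicate 1. The shares of all genes with these orders of libraries were not counted, so how common they are is not known here.

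**Figure D3:**
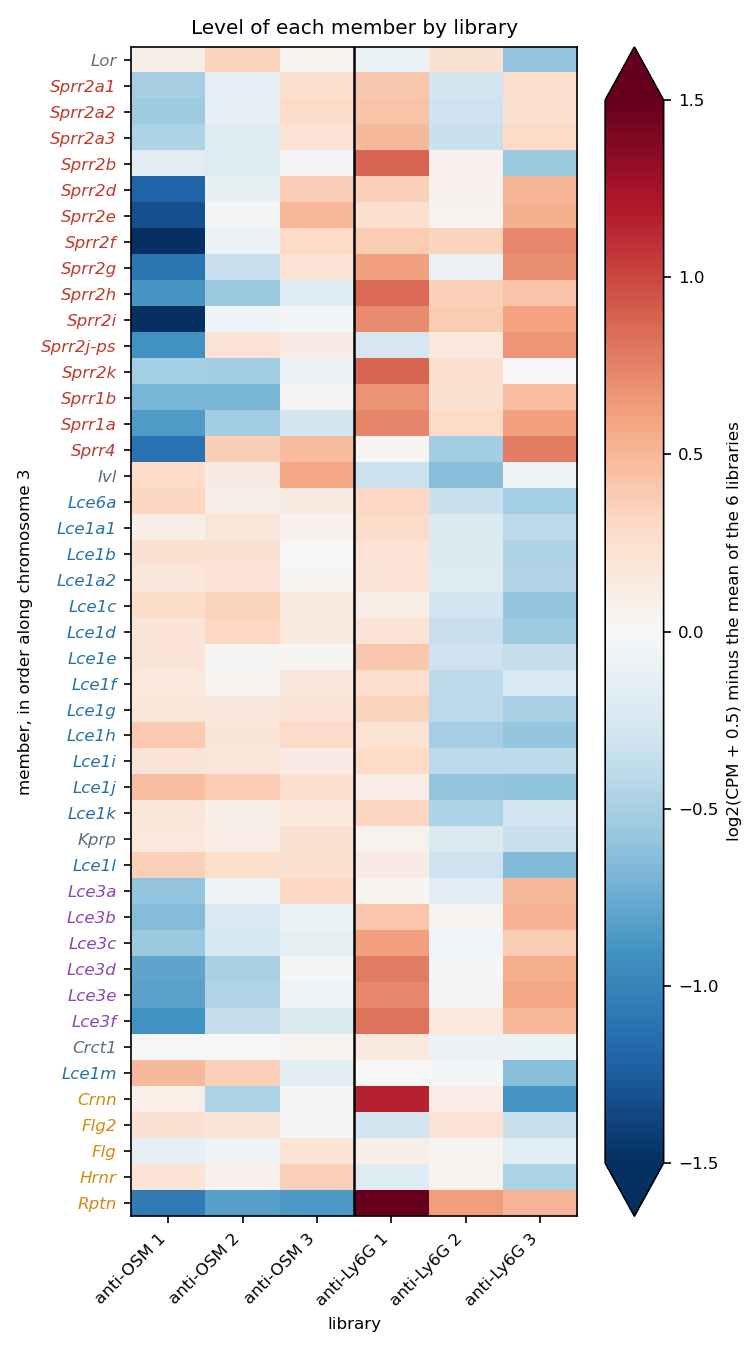
Level of each of the 45 members (rows, in order along chromosome 3, names coloured by family) in each library (columns), as log2(CPM + 0.5) minus the mean of the 6 libraries on a colour scale from -1.5 to 1.5. Anti-Ly6G replicates 2 and 3 are the lowest 2 libraries for 14 of 15 genes of the Lce1 group, and anti-OSM replicate 1 is the lowest library for 13 of 15 Sprr and 6 of 6 Lce3 genes.

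The proportion of Lce3 to Lce1 RNA differed between the groups without overlap. Summed Lce3 TPM was 3.02%, 4.03% and 5.32% of the summed Lce1-group TPM with anti-OSM against 8.41%, 7.49% and 12.0% with anti-Ly6G. Summed Sprr TPM was 1.35, 1.75 and 2.48 times that of the Lce1 group with anti-OSM against 2.92, 2.75 and 4.22 times with anti-Ly6G. Neither proportion overlapped between the groups. The Lce1 group itself summed to 3104, 2996 and 2776 TPM with anti-OSM against 3005, 2196 and 1937 with anti-Ly6G, which overlapped, as did the sum of all 45 members (9534, 10599 and 11993 TPM with anti-OSM against 14571, 10868 and 12160.4 with anti-Ly6G). Both proportions use the members chosen here and carry no test.

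**Figure D4:**
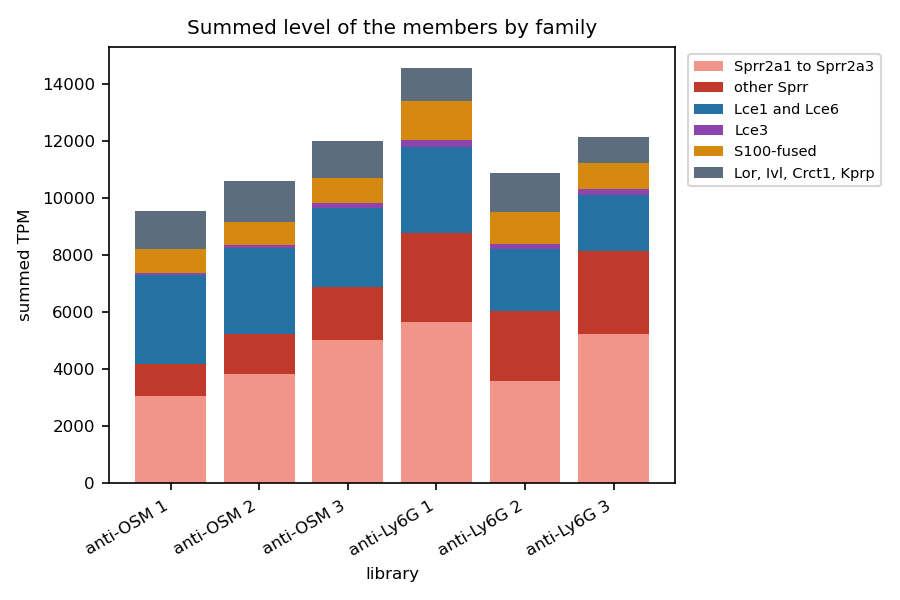
Summed TPM (y axis, from 0) of the members by family, stacked, for each library (x axis). The Sprr genes make up 44.0% to 67.1% of the total in a library, the Lce1 group 15.9% to 32.6% and the Lce3 genes 0.982% to 1.91%.

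The precursors laid down early and the other single genes were mixed. Involucrin, a rod-like scaffold protein of the first envelope, was the 1 member that was higher with anti-OSM. Ivl was at 84.00, 74.8 and 103 CPM with anti-OSM against 54.9, 43.8 and 66.3 with anti-Ly6G, without overlap, and differed by 0.67 (SE 0.17, adjusted p = 0.0443) on the log2 scale, or 1.59-fold. The call held without anti-Ly6G replicate 3 and was lost without any other library (adjusted p 0.0583 to 0.129), with no filter on low counts (0.0635) and with scaling to suprabasal keratins (0.248). Loricrin, the main protein of the mature envelope, was at 711, 853 and 681 CPM with anti-OSM against 625, 788 and 446 with anti-Ly6G. Its groups overlapped and the log2 difference was 0.27 (95% interval -0.19 to 0.73, adjusted p = 0.406). Kprp, a keratinocyte proline-rich protein, was at 175, 171 and 185 CPM with anti-OSM against 163, 135 and 125 with anti-Ly6G. It did not overlap but missed the threshold (log2 fold change 0.33, 95% interval 0.10 to 0.56, adjusted p = 0.0696), and passed in DESeq2 (adjusted p = 0.0277) and without anti-Ly6G replicate 1 (0.0278). Crct1, a small cysteine-rich gene between the Lce3 and Lce1m genes, was at 86.7, 86.1 and 88.7 CPM with anti-OSM against 95.7, 81.6 and 80.8 with anti-Ly6G, with the narrowest interval of the members (log2 fold change 0.02, 95% interval -0.16 to 0.20, adjusted p = 0.895).

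Among the S100-fused genes, repetin passed the test and filaggrin did not. Rptn (chromosome 3, 93393699 to 93399442), an envelope precursor with glutamine-rich repeats, was at 266, 316 and 304 CPM with anti-OSM against 1676, 858 and 786 with anti-Ly6G. The anti-OSM libraries lay close together, below every anti-Ly6G library, and anti-Ly6G replicate 1 was far above the other two. The log2 fold change was -1.91 (SE 0.29, adjusted p = 0.0133), 3.75-fold lower and the largest difference of any member in size. Leaving out anti-OSM replicate 1 or 3 ended the call (adjusted p = 0.0513 and 0.0541), and without anti-Ly6G replicate 1 the log2 difference was -1.48 (adjusted p = 0.00340). Its neighbour in the complex Tchh, which encodes trichohyalin of the hair follicle's inner root sheath and is no member, was at 87.6, 111 and 85.8 CPM with anti-OSM against 634, 374 and 349.8 with anti-Ly6G (log2 fold change -2.26, SE 0.25, adjusted p = 0.00521). Hair follicle markers summed to 10.03 to 13.03 TPM with anti-OSM against 18.5 to 97.8 with anti-Ly6G, and all 7 tested had negative fold changes, with a median of -2.67 on the log2 scale. Of these 1 was lower, Hoxc13 (log2 fold change -1.26, SE 0.17, adjusted p = 0.00553), while 4 were lower at an unadjusted p under 0.05 and 5 in DESeq2. The shares of all genes lower were 6.27%, 14.4% and 9.92%. The hair keratin genes Krt28 (-2.05, adjusted p = 0.121) and Krt71 (-4.40, adjusted p = 0.167) did not pass in edgeR. The inner root sheath keratins Krt71 and Krt25 were at 30.3 and 19.1 CPM in anti-Ly6G replicate 1 and at most 2.85 in any other library. The part of hair follicle content in the Rptn difference was not tested.

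Filaggrin itself showed no difference that the test could detect. Flg was at 909, 951 and 1147 CPM with anti-OSM against 1059.6, 1023 and 893 with anti-Ly6G, and the log2 difference was 0.02 (95% interval -0.24 to 0.27, adjusted p = 0.946). Flg2, which encodes filaggrin-2, was at 199, 194 and 167 CPM with anti-OSM against 139, 198 and 135 with anti-Ly6G. The groups overlapped, and the log2 difference was 0.25 (95% interval -0.10 to 0.59, adjusted p = 0.325), which passed without anti-Ly6G replicate 2 (adjusted p = 0.0339). Hornerin had the highest mean level of these 5 genes, 431 TPM. Hrnr was at 2515, 2283 and 2806 CPM with anti-OSM against 1913, 2268 and 1572 with anti-Ly6G, without overlap by a narrow margin, and its log2 difference, 0.40 (95% interval 0.08 to 0.72, adjusted p = 0.0993), did not pass here but passed in DESeq2 (adjusted p = 0.0265). Cornulin was scarce and variable: Crnn was at 1.75, 1.03 and 1.66 CPM with anti-OSM against 4.25, 1.80 and 0.652 with anti-Ly6G (log2 fold change -0.59, 95% interval -2.06 to 0.88, adjusted p = 0.575).

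The signs fell in blocks along the chromosome, counting also the 37 members that did not pass. The 45 members span 1.32 Mb of chromosome 3, from 92080271 to 93399442 (GRCm38.p6). After Lor, 15 Sprr genes from Sprr2a1 to Sprr4 occupied 285 kb with negative fold changes only (median -0.61). The next 16 genes, from Ivl through Lce6a and the Lce1 genes with Kprp to Lce1l, occupied 280.4 kb with positive values only (median 0.32). A gap of 74 kb separates Lce1l from Lce3a, where the 6 Lce3 genes, within 68.1 kb, were again all negative (median -0.84). Crct1 and Lce1m, just beyond them, were positive, Crnn was negative, Flg2, Flg and Hrnr were positive, and Rptn, 60.1 kb beyond Hrnr, was negative. Lce1m thus shared the sign of the Lce1 genes although it lies apart from them, next to the Lce3 genes. Families lie together on the chromosome, so family and position cannot be told apart here. Tchh lies 42.9 kb beyond Rptn. Of 17 other genes of the complex tested, 4 were lower (Tchh, Tchhl1, S100a16 and Pglyrp4) and 0 higher, beside 6.27% of all genes lower. At an unadjusted p under 0.05, 1 was higher and 8 lower (14.7% and 14.4% of all genes). In DESeq2 the counts were 1 and 6 (9.41% and 9.92%), and in limma-voom 0 and 4 (5.63% and 5.78%). The count of lower genes was 2 without anti-OSM replicate 1 or 2, where 2.06% and 2.52% of all genes were lower. Tchhl1, next to Tchh, had a log2 difference of -1.41 (adjusted p = 0.0316), S100a16 -0.32 (0.0268) and Pglyrp4, a peptidoglycan recognition protein, -0.46 (0.0137).

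The transglutaminase genes listed, Tgm1, Tgm3 and Tgm5 with the more widely expressed Tgm2, were lower with anti-OSM. All 4 passed, where 6.27% of all genes tested were lower. None overlapped between the groups (17.3% of all genes were lower without overlap), and their summed level was 194 to 203 TPM with anti-OSM against 266 to 272 with anti-Ly6G. Tgm1, the membrane-bound enzyme of the upper epidermis, was at 98.96, 98.5 and 113 CPM with anti-OSM against 144, 139 and 123 with anti-Ly6G (log2 fold change -0.39, SE 0.09, adjusted p = 0.0255). Tgm3, which acts on loricrin and Sprr proteins before assembly, was at 103, 123 and 116 CPM with anti-OSM against 144, 148 and 138 with anti-Ly6G (log2 fold change -0.33, SE 0.08, adjusted p = 0.0335). Tgm5 had a log2 difference of -0.32 (SE 0.07, adjusted p = 0.0255), and Tgm2, the widely expressed tissue enzyme, -0.60 (SE 0.09, adjusted p = 0.00724). These differences were smaller than those of Sprr1a or Rptn. Tgm2 alone passed without each library in turn. The count was 1 when anti-OSM replicate 1, anti-OSM replicate 2 or anti-Ly6G replicate 1 was left out, 2 when anti-OSM replicate 3 or anti-Ly6G replicate 2 was, and 0 with scaling to suprabasal keratins. In those fits 1.42% to 3.64% of all genes were lower. Of 12 scaffold and junction partners 0 passed, with 1 higher and 4 lower at an unadjusted p under 0.05 (14.7% and 14.4% of all genes). Of these partners, 3 were lower in DESeq2 (9.92% of all genes) and 0 in limma-voom (5.78%). Levels were lower without overlap for 4 of them: Cdsn, which encodes corneodesmosin (log2 fold change -0.35, SE 0.10, adjusted p = 0.0577), Dsp, which encodes desmoplakin (log2 fold change -0.37, SE 0.12, adjusted p = 0.0808), Csta1, a cystatin A gene (log2 fold change -0.74, SE 0.27, adjusted p = 0.124), and Pkp1, which encodes plakophilin 1 (log2 fold change -0.32, SE 0.12, adjusted p = 0.127). The scaffold genes Ppl (periplakin) and Evpl (envoplakin) overlapped and had a log2 difference of 0.28 (95% interval -0.04 to 0.61, adjusted p = 0.226) and -0.21 (95% interval -0.51 to 0.08, adjusted p = 0.323).

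Several genes were lower with anti-OSM in the list for filaggrin maturation and breakdown. That list also holds proteases that shed the outer cells and their inhibitor. Of 16 tested, 6 were lower (6.27% of all genes), 0 were higher and 10 did not pass (8 lower and 0 higher at an unadjusted p under 0.05, likewise in DESeq2, and 5 and 0 in limma-voom). The shares of all genes lower were 14.4% at that unadjusted p, 9.92% in DESeq2 and 5.78% in limma-voom. Padi3, a peptidylarginine deiminase, was at 1.41, 1.15 and 1.47 CPM with anti-OSM against 6.42, 4.47 and 2.14 with anti-Ly6G (log2 fold change -1.69, SE 0.37, adjusted p = 0.0286). Among the kallikrein proteases that shed the outer cells, 3 were lower: Klk6 had a log2 difference of -0.89 (SE 0.13, adjusted p = 0.00706), Klk8 -0.74 (SE 0.10, adjusted p = 0.00538) and Klk7 -0.49 (SE 0.13, adjusted p = 0.0419). Klk5 had a log2 difference of 0.08 (adjusted p = 0.603). Their inhibitor gene Spink5 was lower as well, at 501, 464 and 485 CPM with anti-OSM against 855, 754 and 592 with anti-Ly6G (log2 fold change -0.60, SE 0.13, adjusted p = 0.0217), as was Blmh, a hydrolase of filaggrin fragments (log2 fold change -0.42, SE 0.09, adjusted p = 0.0214). Casp14, whose protease cleaves filaggrin, overlapped and had a log2 difference of -0.46 (95% interval -1.01 to 0.09, adjusted p = 0.246), and Asprv1, another filaggrin protease, 0.20 (95% interval -0.01 to 0.42, adjusted p = 0.191). The count was 2 when anti-OSM replicate 1, anti-OSM replicate 2 or anti-Ly6G replicate 1 was left out, 3 without anti-Ly6G replicate 2, and 2 with scaling to suprabasal keratins, while 1.42% to 3.64% of all genes were lower in those fits. Of 11 secreted proteins of the granular layer, 1 (Spink5 again) was lower, beside 6.27% of all genes. At an unadjusted p under 0.05 and in DESeq2, 1 was higher and 3 lower. Over all genes, 14.7% were higher and 14.4% lower at that p, and 9.41% and 9.92% in DESeq2. Calm5, a calmodulin-like gene, did not overlap and missed the threshold (log2 fold change 0.46, SE 0.14, adjusted p = 0.0725), as did Cdsn.

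**Figure D5:**
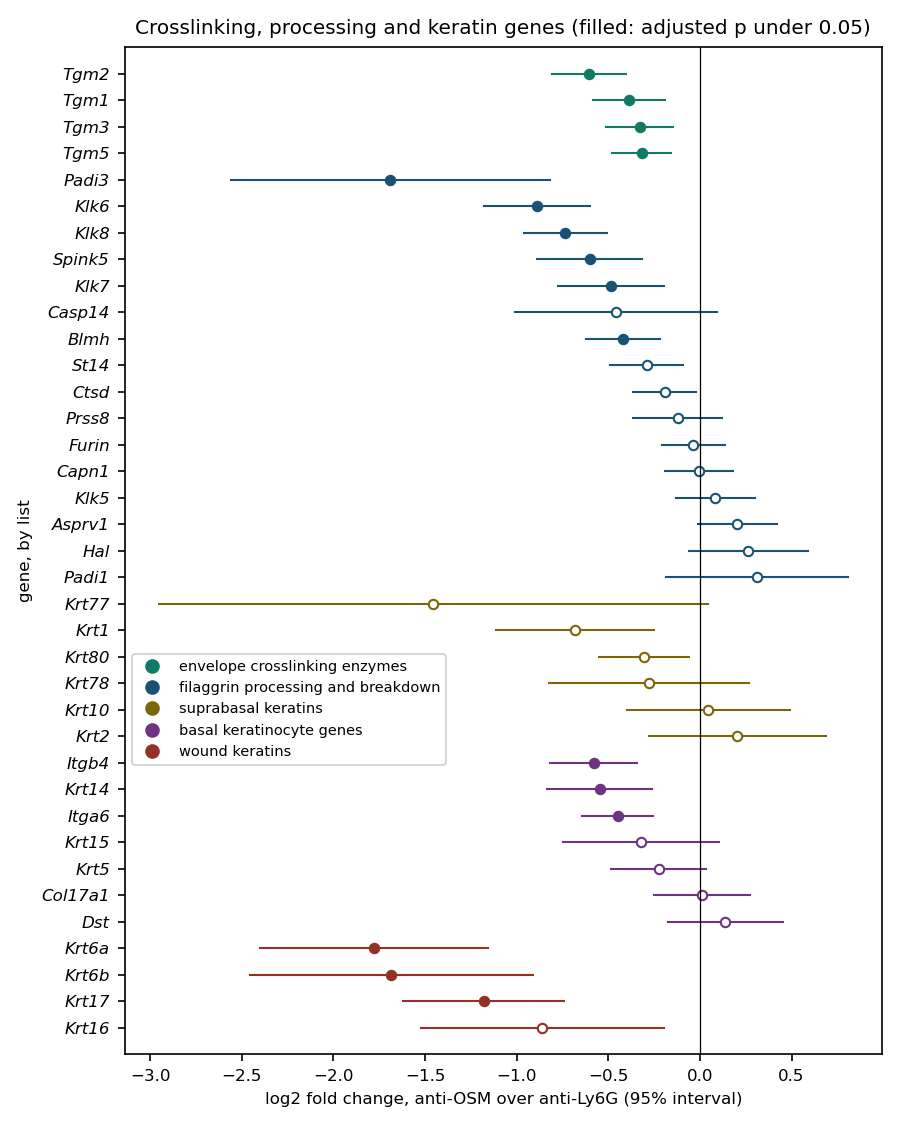
Log2 fold change of anti-OSM over anti-Ly6G with its 95% interval (x axis) for genes of 5 lists (y axis, coloured by list), with filled circles for an adjusted p under 0.05. All 4 listed transglutaminase genes lie left of 0 and passed. So do 6 of 16 genes of the filaggrin-processing list, which also holds kallikreins and Spink5. None of the 6 suprabasal keratin genes passed in this fit.

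The suprabasal keratins of the same cells did not pass the main edgeR test, though Krt1 lay near its threshold. Of 6 suprabasal keratin genes 0 passed in edgeR, with 0 higher and 2 lower at an unadjusted p under 0.05, 2 lower in DESeq2 and 1 in limma-voom. The shares of all genes lower were 14.4%, 9.92% and 5.78%. Krt1 was at 2325, 3336 and 3950.2 CPM with anti-OSM against 5201, 5725 and 4509.6 with anti-Ly6G, without overlap, and missed the threshold (log2 fold change -0.68, SE 0.19, adjusted p = 0.0522). It passed in DESeq2 (adjusted p = 0.000932), limma-voom (0.0482) and edgeR with upper-quartile scaling (0.0484), total counts (0.0481) or a replicate block (0.0467). Krt1 also passed without anti-Ly6G replicate 3 (0.0414), and not in the other alternative fits. Its partner Krt10 was at 8737, 9542 and 8901 CPM with anti-OSM against 8758, 11344 and 6250.2 with anti-Ly6G (log2 fold change 0.04, 95% interval -0.40 to 0.49, adjusted p = 0.905), and Krt2 had a log2 difference of 0.20 (95% interval -0.28 to 0.69, adjusted p = 0.565). Krt80 (-0.30, adjusted p = 0.104) and Krt77 (-1.45, adjusted p = 0.182) had the next smallest p-values after Krt1. Of 7 basal keratinocyte genes 3 were lower, beside 6.27% of all genes tested. They were Krt14 (log2 fold change -0.55, SE 0.12, adjusted p = 0.0271), Itga6 (log2 fold change -0.45, SE 0.09, adjusted p = 0.0157) and Itgb4 (log2 fold change -0.58, SE 0.10, adjusted p = 0.0134), which encode a basal keratin and the integrin of hemidesmosomes. The count of lower genes was 0 without anti-OSM replicate 1 or 3 and with scaling to suprabasal keratins, where 1.42% to 2.27% of all genes were lower. With that scaling 9 members were lower and 0 higher, while 0.919% of all genes tested were higher and 1.42% lower.

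Of 26 transcription factors with known roles in late epidermal differentiation, 2 were higher and 1 lower, or 11.5% called beside 12.1% of all genes tested. At an unadjusted p under 0.05, 3 were higher and 11 lower, beside 14.7% and 14.4% of all genes. In DESeq2 the counts were 2 and 6 (9.41% and 9.92% of all genes), and in limma-voom 2 and 0 (5.63% and 5.78%). Ahr, the aryl hydrocarbon receptor gene, was at 102, 97.2 and 98.5 CPM with anti-OSM against 71.5, 67.96 and 79.7 with anti-Ly6G (log2 fold change 0.44, SE 0.07, adjusted p = 0.0108), with every anti-OSM library above every anti-Ly6G library. Maf had a log2 difference of 0.32 (SE 0.08, adjusted p = 0.0364), and Cebpb, a factor of the granular layer, -0.31 (SE 0.09, adjusted p = 0.0490). The Ahr call held without each library and was lost with scaling to suprabasal keratins (adjusted p = 0.679). The Maf call held without anti-Ly6G replicate 3 and was lost without any other library (0.0769 to 0.135) and with that scaling (0.943). The Cebpb call was lost without any 1 of the 6 libraries (0.0527 to 0.157). It was also lost with upper-quartile scaling (0.0537), total counts (0.0681), suprabasal keratin scaling (0.953), a non-robust fit (0.0519) and limma-voom (0.0503).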

How the data were processed

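Each gene of the deposited table has read counts, FPKM and TPM, per the file headers. Counts are used as deposited, in whole numbers. The sources used here do not give how reads were assigned to genes or whether strand was used. The authors' FPKM values were used only to check columns, and the TPM values, per the file headers, were used to compare levels between genes. Per the submitters' processing notes, the tools include HISAT2 2.1.0, StringTie 2.1.3b and Trimmomatic 0.38, without stated roles, and mm10 is among the builds.

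Counts of the 6 antibody libraries were tested with edgeR 4.0.16 in R 4.3.3 (filterByExpr, TMM scaling, robust quasi-likelihood fit, 2-sided F-test, no covariate), with Benjamini-Hochberg adjustment over 19915 genes and a threshold of 0.05. Positive log2 fold changes are higher with anti-OSM. CPM values use TMM-scaled library sizes. Computed from TPM, the fold changes of 2 members, Flg and Crct1, had the other sign, both near 0, and no member's differed by more than 0.0543 on the log2 scale. The labels do not say whether replicates are separate mice. The p-values then reflect only how these libraries vary, which may be technical. No pair within a group looked like a single library deposited more than once (lowest chi-square per gene 26.2 over genes with more than 100 counts).

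Alternatives were DESeq2 1.42.0, limma-voom (limma 3.58.1), other scalings, no low-count filter, a non-robust fit, a replicate block and leaving out each library. The script was tested on simulated counts. Positions and promoters are from RefSeq GRCm38.p6, the assembly mm10 names, and shared 100-base stretches were counted in GENCODE M21 transcripts. The members and lists were chosen with earlier results of these data known. Values per library are given for members that passed, for Lor, Ivl, Crct1, Kprp and the S100-fused genes, and for the 3 Lce and 3 Sprr genes with the highest mean TPM. Listed epidermal and hair follicle genes are named where they passed or had 1 of the 3 smallest p-values of their list, and markers of other tissues are given as counts and sums. Sprr2f, Sprr2i, Sprr2k, Lce1j, Lce3a, Ppl, Evpl, Pkp1, Klk5, Casp14, Asprv1, Krt2, Krt10, Krt16 and Krt25 were also described after their values were seen. Same-numbered libraries of the groups were not treated as pairs.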

Additional observations from a re-analysis of the deposited data

How the results depend on the processing

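Members called higher with anti-OSM numbered 1 in the edgeR test, 7 with DESeq2 and 2 with a non-robust fit (5.71% of all genes higher). They numbered 2 with limma-voom, 0 with no low-count filter and 0 with scaling to suprabasal keratins. Without 1 library they ran from 0 to 15, and the 15 came from leaving out anti-Ly6G replicate 1. Members called lower numbered 7, 10 with DESeq2, 9 with scaling to suprabasal keratins, 6 with limma-voom and 4 with no low-count filter. Without 1 library they ran from 2 (anti-OSM replicate 1 or 2) to 7, and were 3 when anti-OSM replicate 3 or anti-Ly6G replicate 1 was left out. In those 4 fits the share of all genes called fell from 12.1% to 3.49%, 4.79%, 3.45% and 5.30%. Sprr members called lower numbered 3, 5 with scaling to suprabasal keratins and 1 to 3 without 1 library. Lce members called higher numbered 0, 4 with DESeq2, 1 with a non-robust fit, 1 with limma-voom and 0 to 14 without 1 library. The median log2 fold change of the members was -0.14 and ran from -0.42 (without anti-OSM replicate 3) to 0.079 (without anti-Ly6G replicate 1). No scaling or tool reversed the sign of a member. Without 1 library, values that changed sign ran from -0.097 to 0.082 for Flg, -0.42 to 0.30 for Sprr4, -0.028 to 0.099 for Crct1, -0.012 to 0.42 for Lce1e, -0.68 to 0.079 for Sprr2b, -1.04 to 0.27 for Crnn, -0.56 to 0.0013 for Lce3a, -0.15 to 0.27 for Krt10 and -0.032 to 0.35 for Krt2. The cause of these shifts was not tested. With the replicate number as a block, 6 members were higher, 5 of them Lce, and 6 lower. In that fit 6.65% of all genes were higher and 6.40% lower. Same-numbered libraries deviated together with correlations of 0.01, 0.04 and 0.12, and not every library correlated best with its own number. With 3 libraries a group, 37 of 45 members did not pass, which does not show that they were equal.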
